A study of Mus musculus with 6 samples.

Results

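Tuft cells are rare chemosensory cells of the intestinal epithelium. They signal through a taste-like cascade that ends at the cation channel TRPM5, make leukotrienes and prostaglandins, and release interleukin-25 to start type 2 immune responses. The transcription factor POU2F3 is needed for their formation. HuR, the product of Elavl1, is an RNA-binding protein that stabilises or represses many mRNAs.

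Here a tuft cell was a droplet barcode with at least 1000 UMIs (unique molecular identifiers, each counting 1 captured RNA molecule), at most 30% of UMIs from mitochondrially encoded genes and at least 4 of 9 marker RNAs detected. The markers were Dclk1, Trpm5, Avil, Alox5, Sh2d6, Rgs13, Ltc4s, Il17rb and Pou2f3. This gate held 199 barcodes of 36609 that passed the depth filter, or 0.544%, out of 60706 barcodes and 428980031 UMIs in all.

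The 6 samples of small intestinal epithelium, each 1 droplet library, were labelled as HuR knockout (IE-HuR-/-, 3 samples) or control (3 samples from littermates). The study describes values of these data as means over animals, so the libraries were taken as separate animals, although the labels do not say so. In IE-HuR-/- mice a floxed HuR gene is deleted by Cre under the villin promoter, which is active in intestinal epithelial cells and not in the immune cells that lie among them. Controls carried the floxed HuR gene without Cre, although the sample labels call their genotype wild-type. All mice were C57BL/6, 6 to 8 weeks old and fasted before the harvest, and the cells were released with EDTA and TrypLE. No treatment was given.

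The marker threshold lay in a sparse range. Exactly 4 markers were detected in 7 barcodes and exactly 3 in 40, whereas 124 of the 199 tuft cells (62.3%) had all 9. Sh2d7, an adaptor gene that the gate did not use, stood at 28.3 CPM (counts per 1e+06 UMIs) in the summed barcodes with 4 markers and at 3.85 CPM in those with 3. It stood at 467 CPM in barcodes with 9 markers. Ptgs1, which encodes the prostaglandin synthase COX-1, stood at 2.20 CPM at 3 markers, 22.6 CPM at 4 and 456 CPM at 9.

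**Figure D1:**
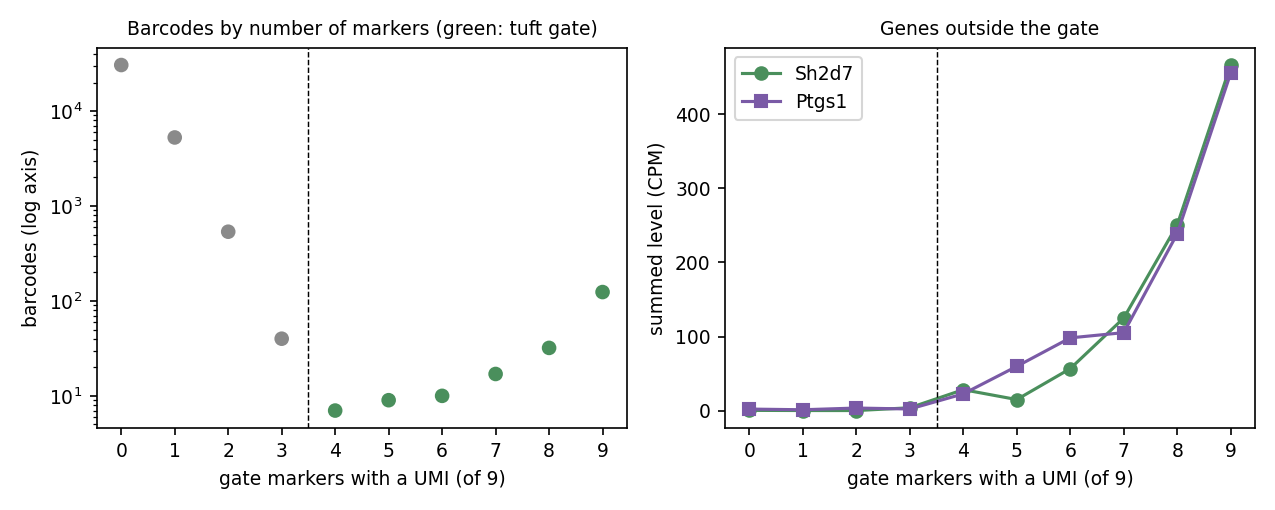
Number of barcodes (left, log axis) and summed level of 2 genes that the gate did not use (right, CPM) by how many of the 9 gate markers had a UMI. The dashed line is the threshold. Barcodes fall from 30561 at 0 markers to 7 at 4 and then rise to 124 at 9. Sh2d7 and Ptgs1 are at most 3.85 CPM left of the line and at least 14.9 CPM right of it.

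Tuft cells were deeply covered. Their median UMI number per library was between 18444 and 30126, against 3568 to 5320 in all other barcodes, and their summed counts were between 728117 and 1241713 UMIs per library. Median mitochondrial shares were between 7.66% and 11.8%, against 3.29% to 3.96% in all other barcodes. Neither depth nor mitochondrial share was particular to tuft cells: barcodes with goblet cell markers had medians of 12983 to 26260 UMIs and 7.91% to 12.01%, and those with enteroendocrine markers 17003 to 26826 UMIs and 5.02% to 9.94%. Because a barcode with more UMIs can show more markers, the gate favours deep barcodes. Over all barcodes, pairs of libraries shared between 22 and 44 barcode sequences.

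The label of the cells was checked against genes of other cell types. All 199 had at least 2 epithelial markers, none had 4 enteroendocrine or 3 group 2 innate lymphoid markers, and 3 had at least 2 mast cell markers. Other cells' RNA was nevertheless present: 63 barcodes had at least 5% of their UMIs from 12 enterocyte markers, 48 had at least 2 T cell markers, 14 had at least 2 B or plasma cell markers and 12 had at least 6 goblet cell markers. Together 100 of the 199 carried at least 1 of these signs.

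The barcodes with at least 5% enterocyte RNA had a median of 45980 UMIs and 1928 CPM from the gate markers. The other 136 had 18501 UMIs and 10497 CPM. Across the 199 barcodes the share of enterocyte RNA and the gate marker level had a Spearman coefficient of -0.68, given as a description, since both are shares of the same UMI total. Control replicate 3 stood apart, with a median enterocyte share of 5.87% against 2.48% to 3.48% in the other libraries, and a median gate level of 3508 CPM against 6789 to 10138 CPM. Whether these barcodes hold 2 cells was not tested.

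**Figure D2:**
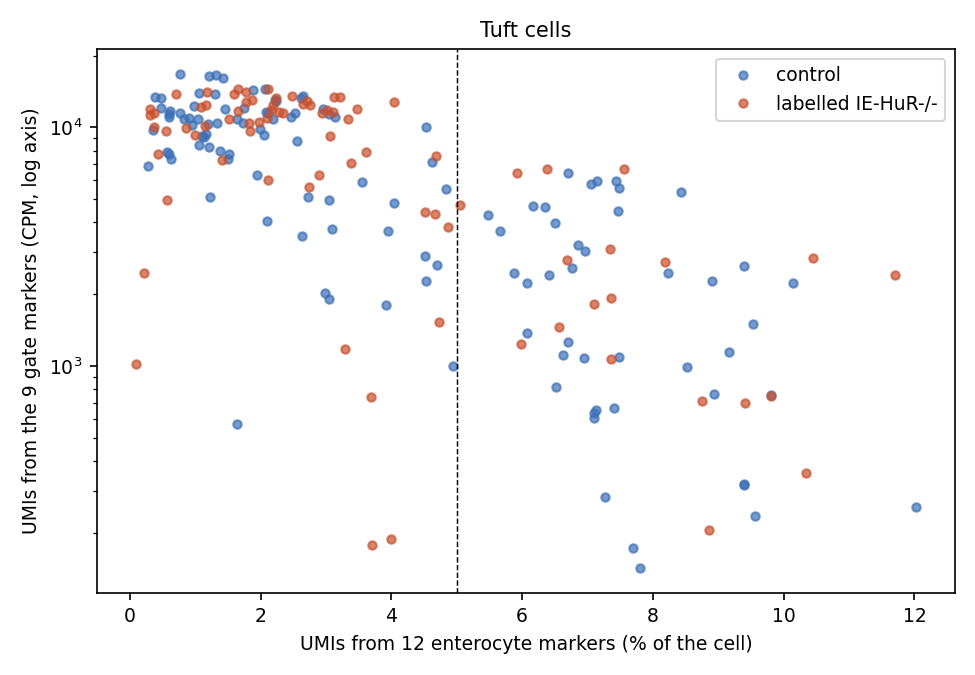
Each point is 1 of the 199 tuft cells, with the percentage of its UMIs from 12 enterocyte markers (horizontal) and the summed level of the 9 gate markers (vertical, CPM, log axis), coloured by label. The 63 cells to the right of the dashed line at 5% lie lower, with a median of 1928 CPM against 10497 CPM for the other 136.

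The 9 gate markers chose the cells, so their levels are a description. Dclk1, a microtubule-associated kinase, was detected in 97.5% of tuft cells and 0.882% of other barcodes. Sh2d6 was detected in 98.0% and 0.857%, Trpm5 in 96.0% and 3.15%, and Avil, the actin-bundling protein advillin, in 95.5% and 0.967%. The leukotriene genes Alox5 and Ltc4s were detected in 82.4% and 92.0% of tuft cells, and Ltc4s was the marker found most often outside them, in 10.4% of other barcodes. Pou2f3 was detected in 76.4% of tuft cells and 0.0522% of the rest. In 7084 T cell barcodes, which should lack these RNAs, Dclk1 had a UMI in 0.265% to 0.915%, Trpm5 in 0.53% to 1.91%, Avil in 0.912% to 2.29%, Ltc4s in 1.59% to 2.54% and Pou2f3 in at most 0.0912% of barcodes per library, at a median depth of 4183 to 5433 UMIs.

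Outside the gate, 2278 genes reached 50 CPM in the tuft cell sum of every library, and 240 of them were at least 1 log2 unit higher in tuft cells than in all other barcodes (mean CPM over 6 libraries, pseudocount 10 CPM), whereas 11 were at least as much lower. Genes that are low in tuft cells could not pass the 50 CPM, so these counts do not show how many RNAs were lower. No test was made, since the cells were chosen on RNAs of the same counts. The glycoprotein gene Cd24a had 4426 ± 1162 CPM (SD, n = 6 libraries) against 30.3 ± 7.82 CPM. Its log2 ratio of 6.78 lay between 5.70 and 7.41 in the single libraries, and Nrgn, neurogranin, had 938 ± 274 CPM against 1.40 ± 0.26 CPM and a ratio of 6.38.

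Lists below are counted without the gate genes. Of 19 listed immune-type signalling genes in the count tables, 18 were higher in tuft cells in all 6 libraries and by at least 1 log2 unit. They included the kinase gene Matk (937 against 5.98 CPM), Siglecf (377 against 0.48 CPM), Bmx (286 against 0.28 CPM) and the phosphatase gene Ptpn6 (568 against 35.6 CPM). The exception was Ptprc, which encodes CD45, with 170 CPM in tuft cells and 124 CPM elsewhere.

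Several signalling genes of the taste cascade were higher in tuft cells. Gnat3 (gustducin) had 111 CPM against 0.04 CPM, Gng13 had 119 against 0.19 CPM, Plcb2 had 64.5 against 2.54 CPM and Itpr2 had 192 against 34.3 CPM. The metabolite receptors Sucnr1, for succinate, and Ffar3, for short-chain fatty acids, had 107 and 115 CPM against 0.17 and 0.31 CPM. Other signalling members were not: Itpr3 had 50.7 against 44.8 CPM, Gnb1 had 346 against 374 CPM, Gnb3 had 1 UMI in all tuft cells and Rgs21 had none. Of the sweet and umami receptor genes, Tas1r1 had no UMI, Tas1r2 had 0.2 CPM and Tas1r3 had 1.1 CPM, and 7 of 14 listed genes were at least 1 log2 unit higher in tuft cells.

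Of 16 listed eicosanoid genes, 6 were at least 1 log2 unit higher. Alox5ap, which hands arachidonic acid to 5-lipoxygenase, had 629 against 4.14 CPM, Ptgs1 had 359 against 1.86 CPM, the prostaglandin D2 synthase gene Hpgds had 87.0 against 5.44 CPM and the phospholipase gene Pla2g4a had 74.3 against 0.56 CPM. Lta4h, which leads to leukotriene B4, had 138 CPM against 142 CPM, and Ptges, for prostaglandin E2, had no UMI. Of 10 listed genes of the type 2 circuit, 3 were at least 1 log2 unit higher. Il25 had 27.0 against 0.04 CPM and Tslp 22.9 against 0.09 CPM. Chat, the acetylcholine-making enzyme, had 62.6 against 0.05 CPM, whereas Slc5a7, the choline transporter, had no UMI.

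Of 14 transcription factor genes, 8 were at least 1 log2 unit higher. Spib had 310 against 1.63 CPM, Sox9 353 against 2.14 CPM, Hmx2 93.5 against 0.05 CPM and Gfi1b 31.6 against 0.03 CPM. Atoh1, which directs other secretory lineages, was lower in tuft cells, at 1.7 against 14.6 CPM. The cytoskeletal genes Krt18 (6232 against 129 CPM) and Tuba1a (409 against 8.75 CPM) were far higher in tuft cells, and the brush border gene Vil1 stood at 1557 and 1567 CPM. Of 12 listed niche factors, the growth factor gene Hbegf was the most abundant, at 63.0 CPM against 134.5 CPM elsewhere. The others were at or below 20.5 CPM in tuft cells, where a pseudocount of 10 CPM hides most differences.

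**Figure D3:**
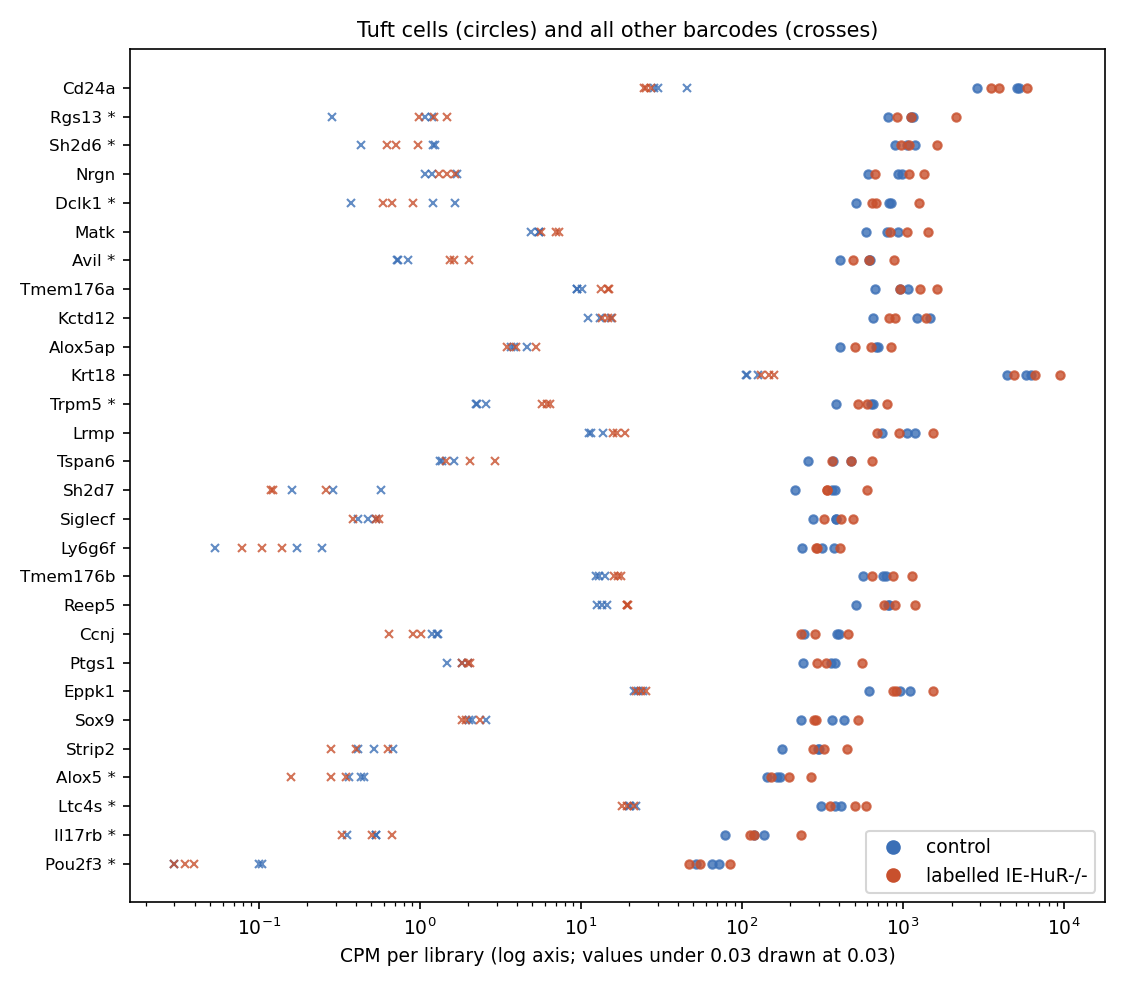
Level per library (CPM, log axis) of the 9 gate genes (asterisk) and 19 of the 20 other genes with the largest ratio, ordered by ratio, in tuft cells (circles) and all other barcodes (crosses). Circles and crosses do not overlap for any gene, from Cd24a with 4426 against 30.3 CPM on average to Pou2f3 with 62.6 against 0.05 CPM.

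Since POU factors bind an octamer, the promoter windows of the 9 gate genes and the 20 other genes with the largest ratio (RefSeq, GRCm38.p6, from 250 bases before to 50 bases after the annotated start) were searched for ATGCAAAT and, on the other strand, ATTTGCAT. Windows were available for 21 genes, and 1 of them, that of Kctd12, held the octamer, whereas 532 of 27025 genes in the table (1.97%) did. The match is a description of letters and not a binding site. The 250 bases before the start are shown for Kctd12 (chr14:102982638-102982887, minus strand, octamer in capitals), together with those of Trpm5 (chr7:143094643-143094892, minus strand) and Avil (chr10:127000459-127000708, plus strand), gate genes whose levels outside tuft cells are described below; neither window holds the octamer.
Kctd12: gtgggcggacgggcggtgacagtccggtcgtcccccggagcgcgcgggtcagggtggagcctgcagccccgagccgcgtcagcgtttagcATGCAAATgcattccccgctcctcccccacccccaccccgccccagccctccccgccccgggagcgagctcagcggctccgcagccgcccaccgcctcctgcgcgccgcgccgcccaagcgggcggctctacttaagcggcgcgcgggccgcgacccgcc
Trpm5: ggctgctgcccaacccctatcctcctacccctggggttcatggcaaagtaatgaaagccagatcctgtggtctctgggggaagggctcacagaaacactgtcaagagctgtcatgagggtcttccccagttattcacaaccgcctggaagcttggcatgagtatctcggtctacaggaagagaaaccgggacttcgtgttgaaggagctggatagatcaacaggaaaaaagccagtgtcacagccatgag
Avil: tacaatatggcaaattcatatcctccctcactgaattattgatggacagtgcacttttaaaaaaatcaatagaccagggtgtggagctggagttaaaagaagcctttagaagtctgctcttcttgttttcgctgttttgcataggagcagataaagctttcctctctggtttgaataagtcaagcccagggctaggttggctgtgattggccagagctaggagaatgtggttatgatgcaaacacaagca

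The labels were then compared. Tuft cells made up 0.527%, 0.628% and 0.627% of passing barcodes in control replicates 1 to 3 (36, 56 and 27 cells) and 0.398%, 0.506% and 0.542% in the libraries labelled IE-HuR-/- (21, 29 and 30 cells). Exact 95% binomial intervals, which cover counting error only, ran from 0.369% to 0.729%, 0.474% to 0.814% and 0.414% to 0.911% in controls, and from 0.247% to 0.608%, 0.339% to 0.726% and 0.366% to 0.772% in the others. The means were 0.594% ± 0.058 and 0.482% ± 0.075 (SD, n = 3), the labels overlapped, and the two-sided exact permutation p was 0.2, where 3 libraries against 3 allow no p below 0.1. The labels did not overlap with a gate of 5 markers (0.577% and 0.458%) or without barcodes that carried T or B cell markers (0.465% and 0.306%), each at p = 0.1, the smallest that the exact permutation test allows. The direction turned when the barcodes with at least 5% enterocyte RNA were left out (0.355% and 0.366%) and when every barcode was first thinned to 1000 UMIs (0.326% and 0.336%).

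Elavl1 RNA checked the labels only in part, since the position of the deleted stretch is not given in the sources used here and reads outside it would remain. On TMM-scaled CPM, which adjusts library sums for composition and is used for all comparisons of labels below, its level in tuft cells was 37.7, 34.8 and 36.1 CPM in controls and 47.8, 33.1 and 56.4 CPM in the libraries labelled IE-HuR-/-. These values overlapped (log2 fold change 0.34, standard error 0.24, edgeR adjusted p = 0.694). In other epithelial barcodes it had 28.6, 30.4 and 27.9 CPM in controls and 33.1, 33.2 and 34.7 CPM in the others and was called higher (0.22, edgeR adjusted p = 0.00196), as it was in the sum of all other barcodes (0.17, edgeR adjusted p = 0.00579). Elavl1 was therefore not lower, and every direction below rests on the labels. The study reports that HuR staining was nearly lost from epithelial cells of IE-HuR-/- mice, measured in tissue and not in these libraries.

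Of 7416 RNAs tested in the summed tuft cell counts, 33 (0.445%) passed an adjusted p of 0.05 in edgeR's quasi-likelihood test. Relative to controls, 15 rose (0.202% of those tested) and 18 fell (0.243%). Without adjustment, 735 RNAs (9.91%) had a p under 0.05. Without control replicate 3, whose tuft cells held the most enterocyte RNA, 50 RNAs were called, 28 of them among the 33. The median log2 fold change over all RNAs tested was 0.00. By a rule on size that also asked for no overlap between labels, 19 of the called RNAs are named in what follows. Of these, Mt1 alone was still called without enterocyte-rich barcodes (16 could be tested) and without barcodes of any other cell type (13 could be tested). At a mitochondrial limit of 15%, 7 of the 19 were called, namely Acta1, H2-DMb1, H2-Aa, Cd74, Cyp2c29, Ces2a and Isg15, and with a gate of 3 markers 13 were. The levels of the gate markers are given as a description, since their detection chose the cells. Dclk1 had 861, 847 and 529 CPM in controls and 692, 1249 and 658 CPM in the others, and Trpm5 had 641, 672 and 395 CPM and 540, 789 and 613 CPM. The labels overlapped for both genes, and the log2 fold changes of all 9 lay between -0.04 and 0.45. Without the barcodes rich in enterocyte RNA, Dclk1 stood at -0.27 and Trpm5 at -0.18.

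The RNAs with higher levels included antigen presentation genes. Of 7 MHC class II genes tested, 6 rose and none fell, with a median log2 fold change of 1.97 over the list. Over all RNAs tested, 0.202% were called higher and 7.42% were higher without overlap between labels. H2-Aa, a class II alpha chain, had 86.5, 95.3 and 109 CPM in controls and 628, 465 and 658 CPM in the libraries labelled IE-HuR-/- (log2 fold change 2.59, standard error 0.209, edgeR adjusted p = 3.04e-05). Cd74, the invariant chain, had 304, 271 and 380 CPM and 1316, 907 and 1516 CPM (1.97, standard error 0.236, edgeR adjusted p = 0.00124). The labels did not overlap for either gene, nor for H2-Ab1, H2-Eb1, H2-DMa and H2-DMb1, which also rose, whereas the protease gene Ctss did not pass (log2 fold change -0.36). With a gate of 3 markers H2-Aa (2.27), H2-Ab1 (1.51), H2-Eb1 (1.36), Cd74 (1.55) and H2-DMb1 (2.60) were not called. H2-Ab1 (1.66) and H2-Eb1 (1.98) were not called at a mitochondrial limit of 15% either, and none of H2-Aa, H2-Ab1, H2-Eb1 and Cd74 was called without enterocyte-rich barcodes or without barcodes of any other cell type, where H2-Ab1 stood at 1.09. H2-DMa was not among the RNAs called at a mitochondrial limit of 15%. Neither H2-DMa nor H2-DMb1 was among those called without enterocyte-rich barcodes or without barcodes of any other cell type. H2-DMb2 had no UMI, and H2-Eb2 and Ciita, the activator of the class, were too low to be tested. In all other barcodes H2-Aa had a mean of 122 CPM in controls and 789 CPM in the others, and Cd74 had 371 and 1774 CPM, so that both were more abundant outside tuft cells.

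Acta1, skeletal muscle actin, showed the largest rise, from 14.7, 24.0 and 16.0 CPM to 644, 563 and 483 CPM (log2 fold change 4.93, standard error 0.247, edgeR adjusted p = 1.3e-07). In other epithelial barcodes Acta1 rose more, by 6.17, to 1338, 1308 and 1329 CPM before TMM scaling. The metallothionein gene Mt1, a zinc-binding stress protein, had 161, 106 and 369 CPM in controls and 2610.05, 2693 and 3329 CPM in the others (3.76, standard error 0.44, edgeR adjusted p = 0.00686). Slc41a3, a magnesium transporter, went from 13.8, 8.28 and 20.2 CPM to 59.1, 54.3 and 51.8 CPM (1.96, standard error 0.29, edgeR adjusted p = 0.00526), and Stk38, a kinase, from 140, 117 and 124 CPM to 224, 292 and 214 CPM (0.94, standard error 0.184, edgeR adjusted p = 0.0442). Slc41a3 was 7.73-fold and Stk38 2.55-fold higher in tuft cells than in other barcodes, and they were 2 of only 4 called RNAs with a ratio of at least 2. The other 2 were Fgf11 and Isyna1, which both rose. Leaving out any 1 library ended the call of Stk38 (log2 fold change 0.78 to 1.02), which was 0.59 without enterocyte-rich barcodes, and leaving out the second library labelled IE-HuR-/- ended that of Mt1 (3.80, edgeR adjusted p = 0.216). Slc41a3 was not called at a mitochondrial limit of 15% (1.72, edgeR adjusted p = 0.127), without enterocyte-rich barcodes (1.69, edgeR adjusted p = 0.61) or without barcodes of any other cell type (1.90, edgeR adjusted p = 0.355).

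Of the RNAs that fell, Cyp2c29, a cytochrome P450 gene, had 163, 167 and 139 CPM in controls and 8.44, 24.8 and 12.7 CPM in the libraries labelled IE-HuR-/- (log2 fold change -3.32, standard error 0.287, edgeR adjusted p = 5.24e-05). Cyp3a11 had 1620.02, 1416 and 1679 CPM and 318, 107 and 275 CPM (-2.75, standard error 0.342, edgeR adjusted p = 0.00457). Cyp2j6, the carboxylesterase gene Ces2a, the gluconeogenic gene Pck1, Bche and Akr1b7 also fell, by 1.72 to 2.29 on the log2 scale. Without the enterocyte-rich barcodes Akr1b7 stood at -0.29, Ces2a at -1.19 and Bche at -1.46, and with every tuft cell thinned to 10000 UMIs Pck1 stood at -1.03, none of them called. Ccl20, a chemokine, had 81.0, 47.2 and 30.2 CPM against 1.41, 0 and 4.60 CPM (-4.59, standard error 0.649, edgeR adjusted p = 0.0105), and Mertk, a receptor for dying cells, had 76.4, 63.8 and 65.5 CPM against 28.1, 23.6 and 28.8 CPM (-1.35, standard error 0.22, edgeR adjusted p = 0.0112). The call of Ccl20 was lost without the first library labelled IE-HuR-/- (-4.43, edgeR adjusted p = 0.0792), and that of Mertk without control replicate 1 (-1.27, edgeR adjusted p = 0.0721) or the third library labelled IE-HuR-/- (-1.41, edgeR adjusted p = 0.0547). At a mitochondrial limit of 15% Ccl20 (-4.52, edgeR adjusted p = 0.107), Mertk (-1.54, edgeR adjusted p = 0.227), Cyp3a11 (-2.72, edgeR adjusted p = 0.54) and Cyp2j6 (-1.39, edgeR adjusted p = 0.227) were not called, and without enterocyte-rich barcodes neither was Cyp2c29 (-3.89, edgeR adjusted p = 0.228).

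Isg15, an interferon-induced ubiquitin-like protein, fell. It had 316, 226 and 153 CPM in controls and 53.5, 59.0 and 65.6 CPM in the others, without overlap (log2 fold change -1.96, standard error 0.254, edgeR adjusted p = 0.00268). It was the 1 called member of 10 tested interferon response genes, of which 5 had lower levels without overlap between labels, against 7.82% of all RNAs tested, and whose median log2 fold change was -1.04. Outside that list, Oas3, Apol9a and Apol9b were called lower. They are named because they were called, and other such genes outside the list were not counted. None of them was among the RNAs called at a mitochondrial limit of 15% or without enterocyte-rich barcodes. Irf7 did not pass (0.02). Control replicate 1 stood apart: the listed genes summed to 3345 CPM before TMM scaling, against 2194 and 2000 CPM in the other controls. The libraries labelled IE-HuR-/- had 1287, 1230 and 1438 CPM. Ifit1 alone had 519 CPM in control replicate 1 against 124 and 136 CPM in the other controls. Isg15 was not called without enterocyte-rich barcodes (-2.19, edgeR adjusted p = 0.436) or without barcodes of any other cell type (-1.86, edgeR adjusted p = 1.00).

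**Figure D4:**
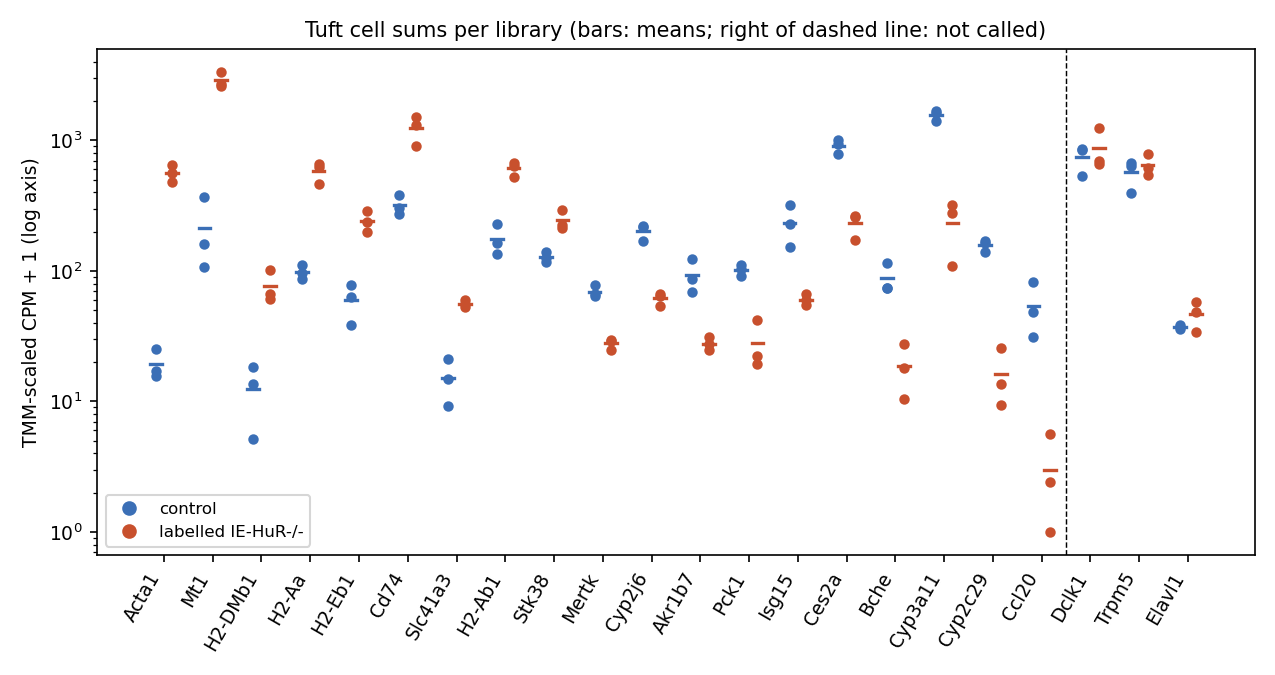
TMM-scaled CPM plus 1 (log axis) in the tuft cell sum of each library for the 19 RNAs named by size and, right of the dashed line, 3 that were not called; points are libraries and bars their means. The rule chose the 19 RNAs for no overlap between labels. They run from Acta1 (14.7 to 24.0 CPM against 483 to 644 CPM) to Ccl20 (30.2 to 81.0 against 0 to 4.60 CPM).

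No taste signalling, eicosanoid, type 2, transcription factor or immune-type signalling gene was called in either direction, of 9, 11, 7, 12 and 19 tested outside the gate. Since 0.445% of all RNAs were called, lists of this size hold few or no calls at the background share. Of 14 cytoskeletal genes tested outside the gate Actb alone was called, and it fell (log2 fold change -0.97, edgeR adjusted p = 0.0497). Actb was not among the RNAs called at a mitochondrial limit of 15%, without enterocyte-rich barcodes or without barcodes of any other cell type. Median log2 fold changes of the first 5 lists were 0.22, 0.058, 0.37, 0.24 and 0.32. None of 32 respiratory chain, 9 mitochondrial (Cox4i1 and Sdha are in both lists) or 12 HuR-related genes tested was called, with medians of 0.046, 0.087 and 0.16. Of 119 tested RNAs outside the gate that averaged at least 50 CPM and were at least 10-fold higher in tuft cells than elsewhere, none was called by edgeR, 15 had an unadjusted p under 0.05 and 13 had no overlap between labels, all 13 higher than in controls. That is 10.9%, against 15.2% of all RNAs tested, or 7.42% in that direction alone. The lowest adjusted p among them was 0.0693, for the heme-binding protein gene Hebp1 with 38.6, 38.9 and 34.4 CPM in controls and 71.8, 70.8 and 72.5 CPM in the others. The 50 CPM was asked of the mean over all 6 libraries. Hebp1 (means of 37.3 and 71.7 CPM) and Krt222 (35.6 and 67.8 CPM) therefore entered only through the label where they were higher. The counts by direction are a description.

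Of the 33, 24 (72.7%) had a higher mean level in all other barcodes than in tuft cells, against 31.6% of all RNAs tested, and 32 were also called in the same direction in 23708 other epithelial barcodes of the same libraries, where 48.5% of 13568 RNAs were called. In the sum of all other barcodes, 51.9% of 15017 RNAs were called. The part of RNA from neighbouring or joined cells in these values was not tested. Without the 63 barcodes rich in enterocyte RNA, which leaves fewer cells and UMIs, 3 of 5643 RNAs were called and 1 of them was among the 33. All 22 of the 33 that could still be tested kept their direction, with a median absolute log2 fold change of 1.63 against 1.92 for the same RNAs in all cells. The log2 fold change of H2-Aa was then 3.06 (edgeR adjusted p = 0.938) and that of Acta1 5.55 (edgeR adjusted p = 0.0663).

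No goblet or T cell marker was called between labels, of 8 and 2 tested, and no B or plasma cell marker was abundant enough to be tested, but their sums differed among libraries. Of 9 enteroendocrine markers the hormone granule gene Chga alone could be tested, and it rose, from 1.84, 1.66 and 2.52 CPM to 16.9, 11.8 and 29.9 CPM (log2 fold change 3.21, edgeR adjusted p = 0.0112), on 55 UMIs in all. Summed goblet cell markers stood at 267, 611 and 1828 CPM in control tuft cells and at 8558, 342 and 4744 CPM in the others, with overlap, of which Zg16 was the most abundant and no marker was at 0. T cell markers reached 614 CPM in control replicate 2 and 211 CPM in the third library labelled IE-HuR-/-, and 24.4 to 55.7 CPM elsewhere, with Gzma the most abundant. Summed stem and progenitor cell markers stood at 490.3 CPM in the first library labelled IE-HuR-/- and at 68.2 to 104 CPM in the other libraries, and Olfm4, a stem cell marker, had 265 CPM in the first and at most 4.74 CPM in the rest. B and plasma cell markers reached 3789 CPM in control replicate 1, mostly Igkc, and at most 30.4 CPM elsewhere. Without the barcodes that carried T or B cell markers, 438 RNAs were called, 28 of them among the 33. None of 12 enterocyte markers was called (median log2 fold change -0.38). Of these, 3 were lower and 1 higher without overlap, against 7.82% and 7.42% of all RNAs tested. Enterocyte-rich barcodes were 13 of 36, 16 of 56 and 15 of 27 in controls and 8 of 21, 4 of 29 and 7 of 30 in the others. Summed Paneth cell markers did not overlap, at 61.3, 43.5 and 31.7 CPM in controls and 20.6, 24.9 and 29.3 CPM in the others. All marker sums here are before TMM scaling. Which of these RNA sources shaped each call was not tested.

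Mt1 was called without enterocyte-rich barcodes but not in every setting. With the enterocyte-rich barcodes left out it had 30.6, 18.6 and 12.01 CPM in controls and 1591, 2354 and 4059 CPM in the libraries labelled IE-HuR-/- (log2 fold change 6.98, edgeR adjusted p = 0.00011). With all 100 barcodes that showed any other cell type left out, it had 37.5, 18.7 and 5.45 CPM against 1726, 2456 and 2921 CPM (6.68, edgeR adjusted p = 4.3e-05). It was not called without the barcodes that carried T or B cell markers (3.53, edgeR adjusted p = 0.0674), at a mitochondrial limit of 15% (3.71, edgeR adjusted p = 0.395), with every cell thinned to 10000 UMIs (4.28, edgeR adjusted p = 0.0915) or among only RNAs at least as high in tuft cells as elsewhere. Aldh1l1, a folate enzyme gene, had 18.4, 24.7 and 20.02 CPM against 102, 126 and 112 CPM without the enterocyte-rich barcodes (2.41, edgeR adjusted p = 0.00446), and Gpx2, a glutathione peroxidase gene, had 24.5, 40.2 and 8.01 CPM against 298, 222 and 416 CPM (3.52, edgeR adjusted p = 0.0113). Neither Aldh1l1 nor Gpx2 was called with all 199 cells, and both are named here after their values were seen.

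**Figure D5:**
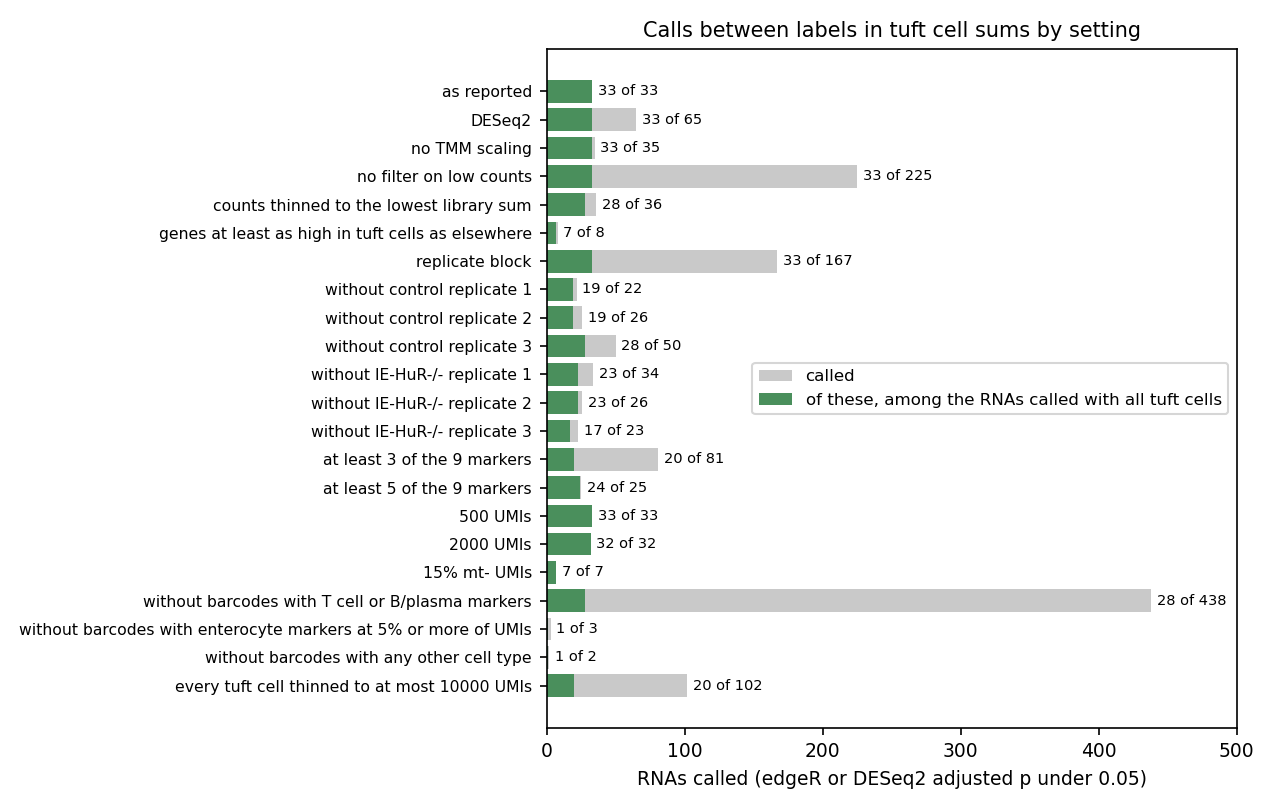
Number of RNAs called between labels in tuft cell sums (bars, with the part shared with the 33 RNAs called in all 199 cells in green) for each way of choosing cells, genes and test. Counts run from 2 without barcodes of any other cell type to 438 without barcodes with T or B cell markers.

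Whether tuft cells changed differently from the rest of the epithelium was tested with an interaction term over tuft and other epithelial sums. Of 13143 RNAs, 16 (0.122%) passed, 4 with a more positive and 12 with a more negative change in tuft cells. The 12 include the gate gene Trpm5, which the gate itself used to divide the barcodes and whose test is not read here. Acta1 and Isg15, named above, are also among the 12. Acta1 changed by 6.17 in other epithelial barcodes and by 4.93 in tuft cells (difference -1.29, edgeR adjusted p = 0.0184). Isg15 changed by -0.73 and by -1.96 (difference -1.24, edgeR adjusted p = 0.0207). Without TMM scaling 21 passed, 15 of them more positive, and the median difference over all RNAs was 0.15 against -0.06 with it. Fut2, a fucosyltransferase gene, was the most significant RNA of this comparison: it rose in other epithelial barcodes (2.75, edgeR adjusted p = 2.29e-09) and had 52.3, 54.0 and 37.3 CPM in control tuft cells against 48.1, 64.0 and 49.6 CPM, before TMM scaling, in the others (difference -2.64, edgeR adjusted p = 6.3e-06).

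The gate genes Trpm5 and Avil are described outside tuft cells without a test, since the gate used both to divide the barcodes. They do not stand for the gate as a whole. In other epithelial barcodes the log2 fold change was 1.56 for Trpm5, 1.10 for Avil and 0.40 for Il17rb. It was 0.008 for Ltc4s, -0.12 for Sh2d6, -0.18 for Rgs13, -0.61 for Dclk1 and -0.74 for Alox5. Pou2f3 was too low there to be compared. In other epithelial barcodes Trpm5 had 2.06, 2.48 and 2.45 CPM in controls and 7.31, 7.28 and 6.06 CPM in the others, and Avil had 0.64, 0.79 and 0.49 CPM and 1.13, 0.95 and 2.07 CPM. In T cell barcodes Trpm5 overlapped between labels, at 1.45, 3.10 and 0.778 CPM against 3.60, 2.05 and 2.86 CPM, while Avil did not, at 1.62, 1.81 and 2.14 CPM against 4.40, 4.11 and 5.03 CPM.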

How the data were processed

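For each of 6 libraries the deposited matrix holds raw UMI counts, made by the authors with Cell Ranger; the matrix headers name version 6.1.2 and the sample records the build mm10, whereas the methods name another version and a human reference, and a 3′ kit where the labels name a 5′ kit. The deposited counts are not normalized. Features and barcode lists were read as given. Barcodes were gated as described above, with no doublet caller. All gated barcodes were kept, and barcodes with markers of other cell types were left out only in alternatives. Members, gene lists and tests were chosen with earlier results of these data known.

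Counts of tuft cells were summed per library and compared by the quasi-likelihood test of edgeR 4.0.16 under R 4.3.3, after TMM scaling and its filter on low counts. The filter asked for a CPM matching 10 counts at the median library size in at least 3 libraries, and for 15 counts in total. RNAs could therefore pass through the libraries of 1 label alone. An RNA was called at a Benjamini-Hochberg p below 0.05. DESeq2 1.42.0 gave an alternative. Each sample is 1 library, and chi-square per degree of freedom between tuft cell sums of 1 label was between 3.99 and 10.6, so none was a copy. The interaction used other epithelial barcodes (fewer than 4 gate markers, at least 2 epithelial and fewer than 2 T or B cell markers) of the same libraries, with the library as a term. Named genes were the gate genes, Elavl1, the 20 largest ratios at 50 CPM or more, up to 10 called RNAs per direction without overlap between labels and with a mean of at least 50 CPM under 1 label, and up to 5 per direction of the interaction. 1 gene that met this rule is not reported here. Shares and medians per library were compared by two-sided exact permutation.

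Both tests were tried on simulated data in which 200 RNAs carried a log2 change of 2. For the label test the changed RNAs had at least 60 tuft cell UMIs, and it recovered 182 of 188 that passed the filter, with 9 false calls. The interaction test recovered 187 of 200 with 8 false calls when the changed RNAs had at least 60 tuft cell UMIs, but 115 of 181 with 5 false calls when the 60 UMIs were counted over tuft and other epithelial sums together. The first of these 2 pools was added after an earlier run of the second had fallen short of the recovery that had been set as a minimum.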

Additional observations from a re-analysis of the deposited data

Results flagged for a closer look

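The interaction test between tuft cells and other epithelial barcodes called 9 named RNAs, each in 4 to 9 of 10 alternative settings. Each value is the log2 change in tuft cells minus that in other epithelial barcodes, and CPM values are before TMM scaling.

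More negative in tuft cells were U90926 (-4.21, edgeR adjusted p = 0.00737), Chil1 (-3.64, edgeR adjusted p = 0.0362), Cd274 (-3.41, edgeR adjusted p = 0.0145), Gcnt1 (-2.82, edgeR adjusted p = 0.000395) and Edn1 (-2.80, edgeR adjusted p = 0.0319). Gcnt1, an O-glycan branching enzyme gene, had 45.1, 36.2 and 30.8 CPM in control tuft cells and 38.5, 99.6 and 39.4 CPM in the others, while it rose in other epithelial barcodes (log2 fold change 3.35). Edn1, Cd274 and U90926 rest on 41, 47 and 50 tuft cell UMIs over all libraries and were too low for the test within tuft cells. Chil1 had 9.61 to 25.3 CPM in tuft cells and changed there by -0.12 (edgeR adjusted p = 0.941). In other epithelial barcodes it had only 0.081, 0.039 and 0.024 CPM in controls and 0.70, 0.63 and 0.29 CPM in the others. Its difference rests on those low levels and is not read.

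More positive were Ndrg1 (1.04, edgeR adjusted p = 0.0184), Msi2 (1.18, edgeR adjusted p = 0.0145), the keratin gene Krt222 (1.61, edgeR adjusted p = 0.0283) and Chga (3.13, edgeR adjusted p = 0.0085). Msi2, an RNA-binding protein gene, had 115, 102 and 78.7 CPM in control tuft cells and 144, 217 and 132 CPM in the others, and it fell in other epithelial barcodes (-0.54). Chga, an enteroendocrine marker, had 1.80, 1.61 and 2.44 CPM and 16.5, 11.9 and 29.3 CPM, from 55 UMIs in all, against 60.8 to 143 CPM in other epithelial barcodes.

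Without TMM scaling neither Chil1 nor Edn1 was called. A single library also ended several of these calls. Krt222 was lost without control replicate 1 (1.70, edgeR adjusted p = 0.0531) and without the second (1.40, edgeR adjusted p = 0.11) or the third (1.71, edgeR adjusted p = 0.0562) library labelled IE-HuR-/-. U90926 was lost without control replicate 2 (-3.47, edgeR adjusted p = 0.099) and Cd274 without control replicate 1 (-3.39, edgeR adjusted p = 0.0745). Chil1 was lost without control replicate 1 (-3.93, edgeR adjusted p = 0.119), control replicate 2 (-3.58, edgeR adjusted p = 0.0903) or the first library labelled IE-HuR-/- (-3.10, edgeR adjusted p = 0.0897). Edn1 was lost without control replicate 3 (-2.25, edgeR adjusted p = 0.192) or the first (-2.57, edgeR adjusted p = 0.0801) or the third (-2.80, edgeR adjusted p = 0.132) library labelled IE-HuR-/-. With goblet barcodes as comparator only Cd274 of the 9 was called, and with enteroendocrine barcodes only Chga, which is itself among the markers that gate used, so that this last call is not read.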

How the results depend on the processing

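The number of RNAs called between labels in tuft cells depended strongly on the setting. Against 33, DESeq2 called 65, no filter on low counts 225, only RNAs at least as high in tuft cells as elsewhere 8, a gate of 3 markers 81 and a mitochondrial limit of 15% 7. Without barcodes with T or B cell markers 438 were called, without those rich in enterocyte RNA 3, without those of any other cell type 2, and with every tuft cell thinned to 10000 UMIs 102; the last 2 settings were added after the data had been seen. Leaving out 1 library gave 22 (without control replicate 1) to 50 (without control replicate 3), of which 17 to 28 were among the 33. Leaving out 1 library gave 11 to 49 RNAs for the interaction against 16, with 43 without control replicate 3 and 49 without the second library labelled IE-HuR-/-. Enteroendocrine barcodes as comparator gave 6, goblet barcodes 3 and no filter 70. The causes of these differences were not tested.

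With the replicate number as a block 167 RNAs were called, all 33 among them. Same-numbered libraries correlated in their deviations at -0.08, 0.25 and 0.25. Libraries numbered 2 and 3 correlated best with their own number, and those numbered 1 did not. With 3 libraries a label these values cannot decide whether the numbers pair the libraries.

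The share of tuft cells turned direction without enterocyte-rich barcodes (log2 ratio 0.045 against -0.30) and after thinning every barcode to 1000 UMIs (0.040), and ranged from -0.39 to -0.18 with 1 library left out. Median UMIs per tuft cell had a log2 ratio of -0.087 (exact permutation p = 0.9), 0.074 with a gate of 3 markers and -0.25 to 0.089 with 1 library left out. The same range was -0.10 to 0.076 for genes and -0.22 to 0.13 for mitochondrial shares. With 3 libraries a label none of these could pass.

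Single RNAs not called with all tuft cells also turned. The gate genes Ltc4s, Il17rb, Rgs13 and Avil passed the threshold only without T or B cell barcodes, at 0.77, 0.76, 0.70 and 0.64; the gate chose the cells on them, so these are a description. Without enterocyte-rich barcodes Ltc4s gave -0.090, Alox5 -0.32, Rgs13 -0.14, Avil -0.16, Sh2d6 -0.28, Dclk1 -0.27 and Trpm5 -0.18. Without barcodes of any other type Alox5 gave -0.30, Sh2d6 -0.071, Dclk1 -0.10 and Elavl1 -0.18. Without T or B cell barcodes Elavl1 gave -0.017 and Pou2f3 0.25. A gate of 3 markers gave -0.019 for Sh2d6 and -0.019 for Trpm5. With 1 library left out, Rgs13 ranged from -0.022 to 0.62, Sh2d6 from -0.023 to 0.35, Dclk1 from -0.14 to 0.38, Trpm5 from -0.031 to 0.32 and Pou2f3 from -0.31 to 0.11. With enteroendocrine barcodes as comparator U90926 gave 0.36 and Chil1 1.46. Of the 19 RNAs named by size, none turned in any setting in which it was tested. Few cells, and few UMIs for low RNAs, limit the precision of all of these values.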
